A study of Mus musculus with 12 samples.

Results

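The comparison described here sets small bowel after ileocecal resection against small bowel before it, in mice that received no supplement. Ileocecal resection removes the end of the ileum together with the cecum. The members were chosen by their labels as the 3 Post control libraries and the 3 Pre control libraries, which are 6 of the 12 libraries in the series. The other 6 libraries come from the treatment arm of the study, which received the milk oligosaccharide 2'-fucosyllactose (2'-FL) at 2.5 g/L, and were used to estimate the spread and for 1 comparison between the arms. All mice were male C57BL/6 animals labelled as aged 8 to 10 weeks, and the labels name no engineered allele. This age is entered for both groups, so it does not show that they were of 1 age at collection. The Post control libraries are labelled as taken 8 weeks after resection, without 2'-FL. The Pre control libraries are labelled as taken before resection, also without 2'-FL, although a protocol entry shared by all libraries places every collection at 8 weeks after resection, and each library was grouped here by its own label. A liquid diet is entered with day 7 for all animals, followed by standard chow. Which segment of bowel was taken, at what hour, and whether a mouse gave both a Pre and a Post library are not stated in the labels. Any difference of segment, hour, diet or age between the groups therefore cannot be told apart from resection.

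The lining of the small bowel is renewed from stem cells at the base of the crypts, which Paneth cells flank and supply with Wnt signals and antimicrobial peptides. Enterocytes on the villi digest and absorb, and their genes for lipid, sugar and drug handling differ along the bowel. The terminal ileum reclaims bile acids and signals to the liver through FGF15, and the remaining bowel is known to adapt after its loss. Many enterocyte genes also follow the circadian clock, a loop in which BMAL1 (Arntl) with CLOCK or NPAS2 drives the Per, Cry and Nr1d genes and the output factors Dbp, Hlf and Tef, whose products feed back on the loop.

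In these libraries the clock genes split into opposing groups, with Arntl, Npas2 and Nfil3 higher and Dbp, Hlf, Tef, Per2 and Per3 lower after resection. All 14 tested Paneth cell defensins and 13 of 19 other Paneth cell genes were lower. So were 13 of 25 genes of crypt stem cells and Wnt targets (8 after correction for transcript length and GC content) and 19 of 44 genes of DNA replication and the cell cycle. Interferon-stimulated genes (18 of 49) were higher. Of all genes tested, 6.33% were called lower and 4.42% higher. With 1 control-arm library left out, the counts of these 5 lists fell to as few as 5, 2, 1, 2 and 7, in the order given. Genes of drug and ester metabolism changed in both directions, with Ces1f, Cyp3a44 and Abcg2 higher and Ces2a, Abcb1a and Abcb1b lower, and the cholesterol exporter Abca1 fell. In bulk tissue, fewer cells of a type and less RNA per cell cannot be told apart.

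Library totals ran from 5692972 to 9385266 counts, so that 1 count stood for 0.107 to 0.176 CPM (counts scaled to the library total). Of 13154 genes tested, 1415 (10.8%) were called at an adjusted p under 0.05, 582 higher (4.42%) and 833 lower (6.33%) after resection. The log2 ratio of a gene to its mean followed transcript length in most libraries. The rank correlation with length across genes was 0.328, 0.296 and 0.073 in Pre control 1, 2 and 3 and -0.299, -0.413 and 0.223 in Post control 1, 2 and 3, so the third library of each group ran against the other 2 of its group or stood near 0. Genes are not independent replicates, and these coefficients describe the libraries only. Every change was therefore also computed with length and GC content fitted out of each library, which brought the coefficients to between -0.018 and 0.036. Genes were divided by transcript length into 10 bins of equal size. In the bin of the shortest transcripts 6.72% rose and 4.05% fell as tested, and in the bin of the longest 1.22% rose and 13.2% fell. After the correction the shares were 6.87% and 5.27% for the shortest and 7.49% and 4.28% for the longest.

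**Figure D1:**
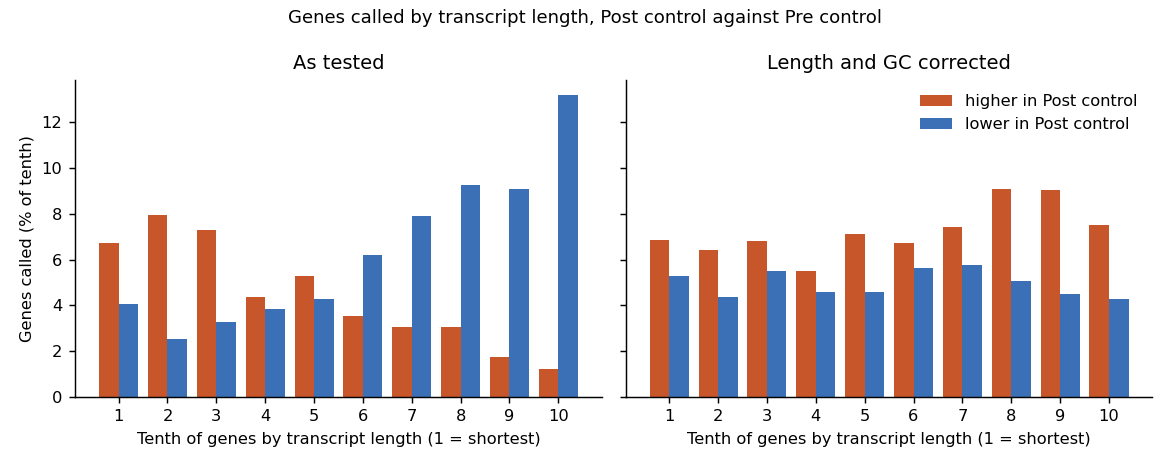
Share of genes called higher or lower after resection (vertical axis, percent of the genes in a bin) against 10 bins of transcript length from shortest to longest (horizontal axis), as tested (left) and after the length and GC correction (right). As tested, calls lower climb with length from 4.05% to 13.2%; corrected, the first and last bin hold 5.27% and 4.28%.

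The corrected fit called 1602 genes (12.2%), 952 higher (7.24%) and 650 lower (4.94%). Both fits called 1052 genes (8%) in the same direction, 509 higher (3.87%) and 543 lower (4.13%), and no gene was called in opposite directions. As tested only, 73 genes rose and 290 fell, and 443 rose and 107 fell only after correction. In 1030 of the 1052 genes the 3 Post control values did not overlap the 3 Pre control values in CPM, beside 4589 of all genes tested (34.9%). A lack of overlap stated below for a gene called in both fits therefore describes it and is no added result. The share called higher was 41.1% as tested and 59.4% corrected, so a direction is stated below for genes and lists and not for the transcriptome. The count also depended on single libraries: without Pre control 1, 2, 3 and Post control 1, 2, 3 in turn it was 1501, 626, 340, 350, 265 and 1588 as tested, and 1953, 835, 516, 648, 461 and 1379 corrected. As tested, 473, 233, 148, 180, 141 and 772 of these were higher and 1028, 393, 192, 170, 124 and 816 lower. The list counts below stand beside these counts and the shares of all genes given above. In all 6 leave-one-out fits 204 genes (1.55%) stayed called as tested and 370 (2.81%) corrected, and 175 (1.33%) met both conditions, 98 higher and 77 lower. Below, rose and fell are used of genes called as tested, with the corrected result beside them. Library values are always in the order 1, 2 and 3, a change is the log2 change ± SE, and counts in leave-one-out fits follow the order just given. Over all genes tested the median change was -0.048 as tested and 0.045 corrected.

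**Figure D2:**
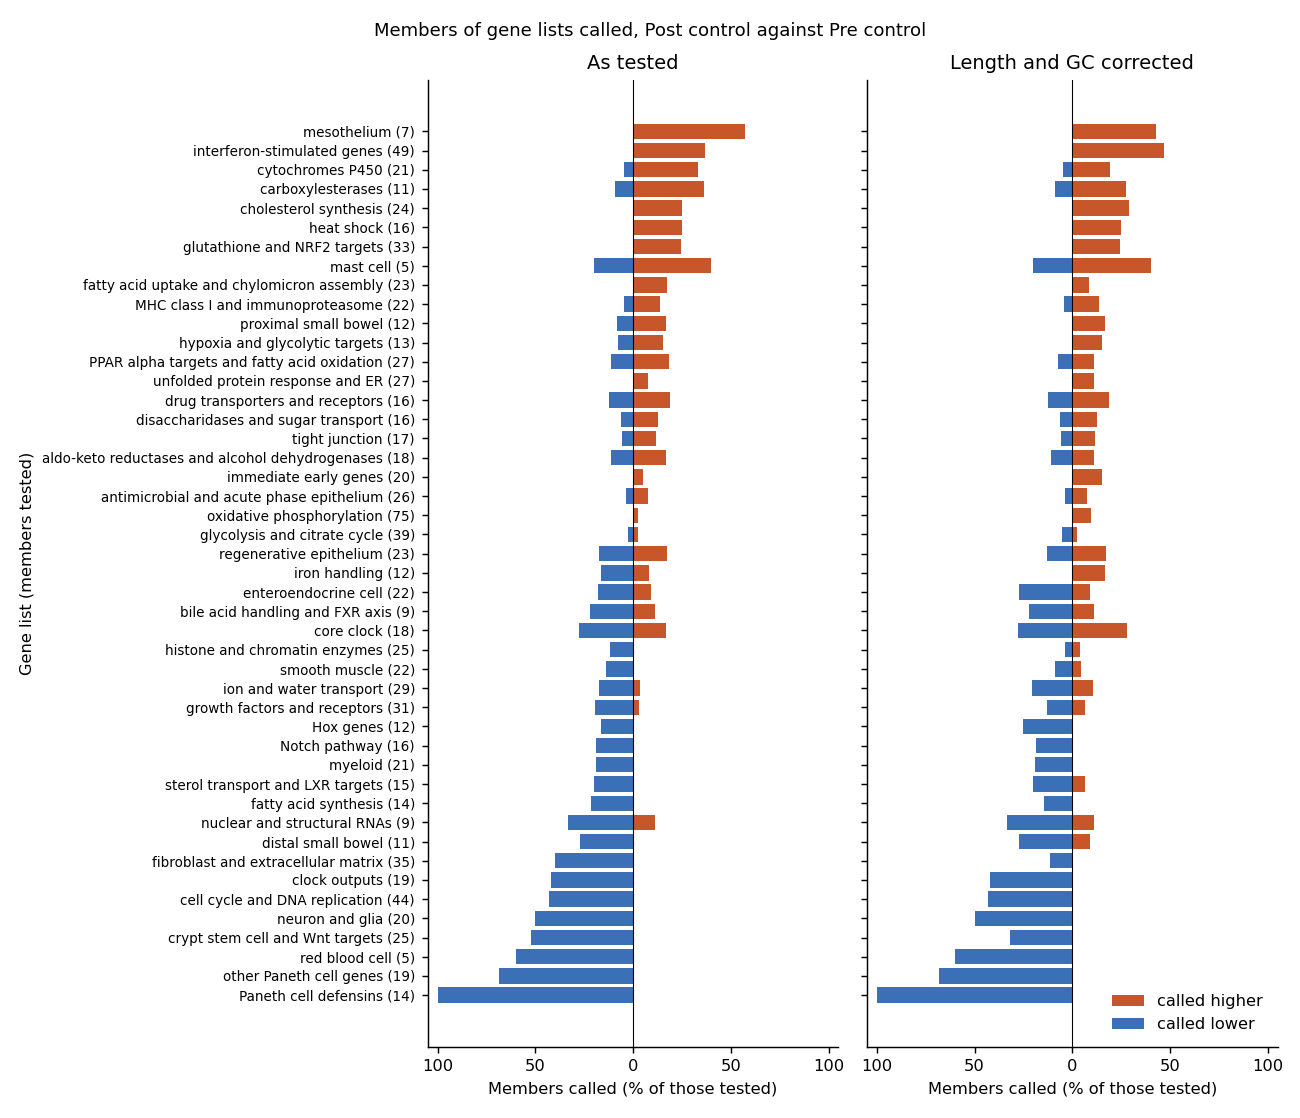
Percent of the tested members of each gene list called higher (right of 0) or lower (left of 0) after resection, as tested and corrected, for lists with at least 4 calls over the 2 fits; the number of members tested stands in brackets. The 14 defensins are all called lower in both panels, and the extracellular matrix list drops from 14 to 4 of 35 calls with the correction.

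The tissue label was checked first. The 11 tested genes of epithelial identity, such as Epcam, Krt20 and Vil1, summed to 15038 to 21953 CPM before and 21554 to 22749 CPM after resection, and none was called in either fit. Krt8 stood at 3849, 3959.9 and 2529 CPM before and 3866, 3927 and 3826 CPM after resection. Of secreted pancreatic enzymes, Cela1 was at 5.47, 4.88 and 5.47 CPM before and 8.63, 17 and 7.32 CPM after and was called higher (1.04 ± 0.29 as tested (adjusted p = 0.0363) and 0.89 ± 0.24 corrected (adjusted p = 0.0305)), and 18 of the 20 pancreas genes listed did not pass the count filter. The summed epithelial markers of the Post libraries lay inside or just above the range of the Pre libraries.

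Of 11 tested genes that are highest toward the end of the small bowel, 3 fell in both fits, Cubn, Fgf15 and Fabp6, beside 4.13% of all genes. None of the list rose as tested, and 1 was called higher corrected. The list's summed level overlapped between the groups, at 3208 to 5286 CPM before and 4059 to 6288 CPM after resection. Cubn, the cubilin receptor for the vitamin B12 and intrinsic factor complex, was at 801, 559 and 302 CPM before and 108, 64.5 and 113 CPM after resection. Cubn changed by -2.54 ± 0.41 as tested (adjusted p = 0.00359) and -2.10 ± 0.39 corrected (adjusted p = 0.00597). The groups did not overlap. Fgf15, the bile-acid-induced hormone of the ileum, had 97, 241 and 3 counts before resection and 0 in every library after it, where 3 counts, the limit that a count of 0 allows for counting error, would be 0.462, 0.548 and 0.3 CPM. Fabp6, the ileal bile acid binding protein, was at 7.88, 166 and 0.475 CPM before and 0.308, 1.1 and 0.601 CPM after resection, so that Pre control 3 lay with the Post libraries and the level of Pre control 2 sets the difference. In the leave-one-out fits 3, 2, 3, 1, 1 and 2 of the list fell. The Hox genes, which mark position along the gut, had few counts. Hoxb7 was at 2.03, 1.93 and 2.73 CPM before and 0.308, 0.548 and 0.902 CPM after resection, a change of -1.82 ± 0.44 as tested (adjusted p = 0.0215) and -1.91 ± 0.42 corrected (adjusted p = 0.0132), and Hoxa5 at 2.03, 1.42 and 3.45 CPM before and 0.616, 1.1 and 0.501 CPM after resection, -1.68 as tested and -1.74 corrected. Of 12 Hox genes tested, 2 fell as tested and 3 corrected, and 5, 2, 0, 0, 0 and 1 fell in the leave-one-out fits.

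Of 12 tested genes that are highest in the upper small bowel, 2 rose and 1 fell, beside 4.42% and 6.33% of all genes. Corrected, 2 were called higher and 0 lower. Their summed level overlapped between the groups, at 6734 to 8639 CPM before and 7942 to 9909 CPM after resection. Onecut2, a transcription factor of the duodenum, rose. It was at 1.27, 0.711 and 2.97 CPM before and 21.9, 9.69 and 22 CPM after resection, a change of 3.45 ± 0.59 as tested (adjusted p = 0.00545) and 3.86 ± 0.58 corrected (adjusted p = 0.00213), and it was called in all 6 leave-one-out fits. Prap1, a secreted protein of absorptive cells, was at 854, 879.7 and 694 CPM before and 1734, 2429 and 1314 CPM after resection and rose by 1.17 as tested and 1.05 corrected. Cybrd1, a duodenal iron reductase, was at 4.45, 5.79 and 9.03 CPM before and 3.7, 1.83 and 2.41 CPM after resection, and its call lower as tested was lost after correction (adjusted p = 0.0604). Prdm1 (BLIMP1), a repressor that maintains the suckling-type epithelium and also drives plasma cells, was at 5.34, 7.52 and 10.2 CPM before and 28, 21.8 and 28.6 CPM after resection. Prdm1 changed by 1.76 ± 0.30 as tested (adjusted p = 0.00486) and 1.95 ± 0.27 corrected (adjusted p = 0.00151). The other 14 enterocyte transcription factors listed, among them Hnf4a and Cdx2, were not called in either fit. The large bowel list gave 1 call in 7 tested genes, Muc3, which was called lower only after correction.

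Circadian clock genes changed in opposing directions. In the core clock list of 18 tested genes, 3 rose and 5 fell, beside 4.42% and 6.33% of all genes, and 5 and 5 were called after correction. Of these, 7 were called in both fits and in every leave-one-out fit. Among the activators, Arntl (Entrez 11865, chromosome 7, 113178471 to 113314126) was at 12.1, 14.8 and 6.3 CPM before and 55.5, 76.2 and 69.9 CPM after resection. Arntl changed by 2.60 ± 0.29 as tested (adjusted p = 0.00058) and 2.65 ± 0.28 corrected (adjusted p = 0.000611). Npas2, which can stand in for CLOCK as its partner, was at 22, 20.4 and 10.2 CPM before and 58.2, 71.7 and 74 CPM after resection. Npas2 changed by 1.95 ± 0.36 as tested (adjusted p = 0.00747) and 2.21 ± 0.33 corrected (adjusted p = 0.00211). Every Post value of both activators lay above every Pre value, which the naming rule required of Arntl. Clock itself was at 53.8, 55.8 and 36.6 CPM before and 72.3, 63.8 and 80.6 CPM after resection and was called only after correction (0.87 ± 0.18, adjusted p = 0.00954), in a transcript of 9744 nt.

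Of the repressors, Per2, Per3, Nr1d1, Nr1d2 and Gm129 fell, and Nfil3 rose. Per3 was at 12.5, 16.9 and 12.7 CPM before and 1.69, 1.1 and 1 CPM after resection. Per3 changed by -3.47 ± 0.44 as tested (adjusted p = 0.00105) and -3.09 ± 0.45 corrected (adjusted p = 0.00211). Per2 was at 28.9, 55.8 and 31.3 CPM before and 8.32, 13.2 and 9.92 CPM after resection, -1.89 ± 0.26 as tested (adjusted p = 0.00175) and -1.48 ± 0.27 corrected (adjusted p = 0.00624), and Nr1d2 (REV-ERB beta) at 108, 84.1 and 77.1 CPM before and 26.2, 8.23 and 24.3 CPM after resection. Nr1d2 changed by -2.18 ± 0.41 as tested (adjusted p = 0.00766) and -2.11 ± 0.36 corrected (adjusted p = 0.00403). In both Nr1d genes Post control 2 was the lowest library. Nr1d1 (REV-ERB alpha), at 161, 78 and 107 CPM before and 39, 8.04 and 33.7 CPM after resection, was called in both fits but in only 1 of 6 leave-one-out fits of each. Gm129 (Ciart), a repressor induced by the clock, had 43, 32 and 43 counts before and 0, 0 and 5 counts after resection. Nfil3, a repressor of D-box genes whose own gene is held down by the REV-ERB proteins, was at 3.94, 2.03 and 6.18 CPM before and 26.2, 29.2 and 16 CPM after resection. Nfil3 changed by 2.56 ± 0.41 as tested (adjusted p = 0.00394) and 2.56 ± 0.40 corrected (adjusted p = 0.00256).

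Of 19 clock output genes tested, 8 fell and none rose, beside 6.33% and 4.42% of all genes. The same 8 were called corrected, and 7 were called in every fit. Dbp (Entrez 13170, chromosome 7, 45705100 to 45710203), the D-box activator, was at 112, 74.5 and 96.9 CPM before and 1.08, 0.914 and 0.902 CPM after resection, a change of -6.59 ± 0.67 as tested (adjusted p = 0.000389) and -6.49 ± 0.69 corrected (adjusted p = 0.000611), the largest corrected decrease among named genes with at least 20 CPM that were called in both fits without overlap. Its relatives Hlf and Tef were at 16.1, 26.2 and 19.5 CPM before and 1.69, 1.28 and 1.6 CPM after resection (-3.73 ± 0.44 as tested (adjusted p = 0.00081) and -3.50 ± 0.43 corrected (adjusted p = 0.000939)) and 114, 111 and 98.4 CPM before and 20.8, 5.85 and 19.6 CPM after resection (-2.78 ± 0.44 as tested (adjusted p = 0.00347) and -2.52 ± 0.39 corrected (adjusted p = 0.00256)). 2310044G17Rik (Cipc), an inhibitor of CLOCK, was at 44.4, 63.9 and 36.1 CPM before and 9.55, 11.3 and 15.4 CPM after resection, a change of -1.98 as tested and -1.76 corrected. Tspan4, a membrane tetraspanin, was at 5.72, 11.4 and 13.9 CPM before and 3.85, 2.56 and 1.9 CPM after resection, a change of -1.92 as tested and -1.93 corrected. Post values lay below all Pre values in each of these 5 genes, which the naming rule required of Dbp, Hlf and Tef. The 11 outputs not called included the sugar transporter Slc5a1, at 3413, 3083 and 2881 CPM before and 1149, 1515 and 2385 CPM after resection, whose groups did not overlap but which was not called (-0.89 ± 0.29, adjusted p = 0.0613).

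**Figure D3:**
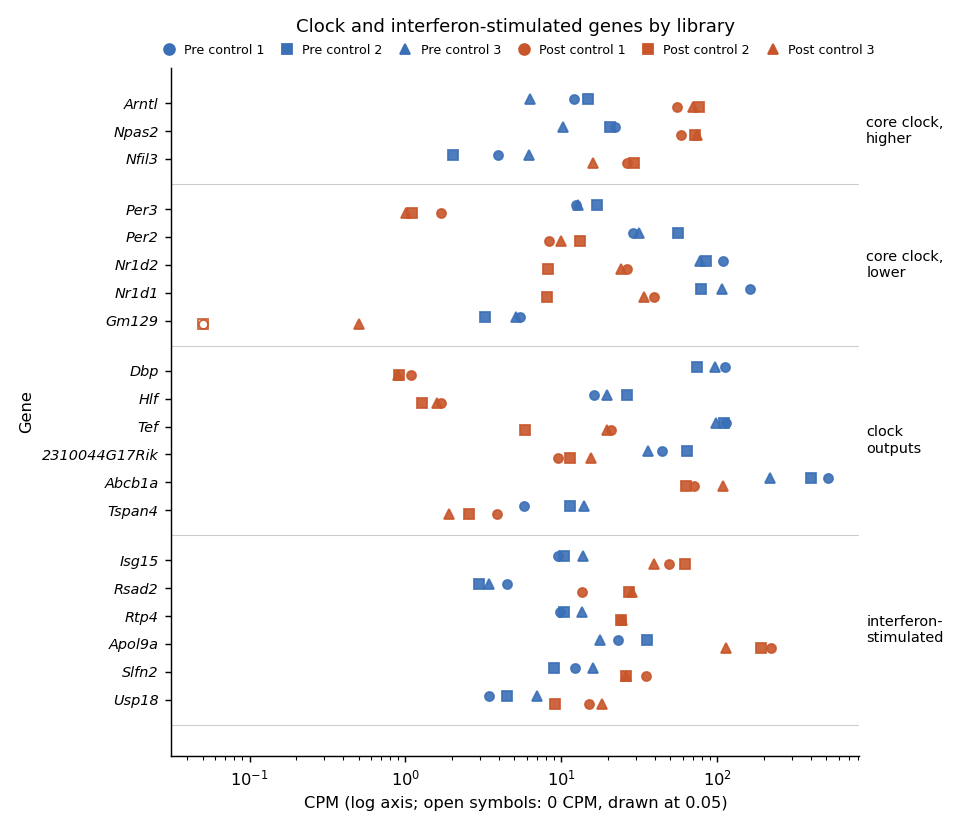
CPM (log axis) of core clock, clock output and interferon-stimulated genes in each Pre control (blue) and Post control (orange) library; symbols give the replicate number and open symbols stand for 0 CPM. Arntl, Npas2, Nfil3 and the 6 interferon-stimulated genes lie higher in all Post libraries, and the Per, Nr1d and output genes lie lower.

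The promoters of these genes are shown because CLOCK complexes bind the E-box, CACGTG, and DBP, HLF, TEF and NFIL3 bind the D-box, TTATGTAA. Windows run 20 bases either side of the match, in the sense of the gene, from RefSeq promoters of GRCm38.p6 that cover 250 bases before to 50 after a start, searched on both strands. Capitals mark the match.
Per3 (chr4:151044843-151044890, minus strand): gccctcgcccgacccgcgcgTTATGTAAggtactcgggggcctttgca
Per3 (chr4:151044796-151044843, minus strand): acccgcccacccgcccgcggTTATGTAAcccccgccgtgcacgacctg
Gm129 (chr3:95882261-95882306, minus strand): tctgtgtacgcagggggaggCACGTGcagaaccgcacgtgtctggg
Gm129 (chr3:95882319-95882364, minus strand): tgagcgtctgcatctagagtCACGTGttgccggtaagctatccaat
Tef (chr15:81802526-81802571, plus strand): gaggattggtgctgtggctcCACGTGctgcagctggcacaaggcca
2310044G17Rik (chr12:86947306-86947351, plus strand): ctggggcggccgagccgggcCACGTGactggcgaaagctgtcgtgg
Tspan4 (chr7:141476309-141476354, plus strand): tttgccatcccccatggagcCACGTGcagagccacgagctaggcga
Per3 holds 2 D-boxes and was the 1 core clock gene of 13 with a promoter in the table to hold any (7.69%), beside 70 of 10442 promoters of tested genes (0.67%). The E-box occurred in 3 of the 13 core clock promoters (23.1%) and 5 of 17 clock output promoters (29.4%), beside 1201 of all 10442 (11.5%). The windows shown are all of genes that fell. Of the 3 core clock genes with an E-box only Gm129 was called as tested. Slc5a1, a clock output with an E-box, was not called. A match is a description of letters in these windows only.

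All interferon-stimulated genes that were called were higher after resection. Of 49 tested, 18 rose, all 18 of them also corrected, and 23 were called higher after correction, with a median change of 0.77 (0.79 corrected). Of all genes, 4.42% rose and 7.24% were called higher corrected. In the leave-one-out fits 15, 10, 12, 7, 10 and 15 rose. Isg15 (Entrez 100038882, chromosome 4, 156199424 to 156200818), a ubiquitin-like protein conjugated in antiviral states, was at 9.53, 10.4 and 13.8 CPM before and 49.2, 61.8 and 39.5 CPM after resection. Isg15 changed by 2.15 ± 0.27 as tested (adjusted p = 0.000965) and 2.03 ± 0.23 corrected (adjusted p = 0.000667). Rsad2 (viperin), which blocks viral replication, was at 4.45, 2.95 and 3.45 CPM before and 13.6, 27.1 and 28.6 CPM after resection. Rsad2 changed by 2.68 ± 0.43 as tested (adjusted p = 0.00394) and 2.75 ± 0.46 corrected (adjusted p = 0.00395). Rtp4, a chaperone of receptors, was at 9.79, 10.4 and 13.6 CPM before and 24, 23.9 and 24.7 CPM after resection and so had a small but even rise of 1.11 as tested and 0.96 corrected. Slfn2 was at 12.2, 8.94 and 15.9 CPM before and 35.1, 26 and 26.2 CPM after resection (1.24 as tested and 1.14 corrected) and Usp18, the protease that removes ISG15, at 3.43, 4.47 and 7.01 CPM before and 15.1, 9.14 and 18.3 CPM after resection (1.52 as tested and 1.48 corrected). The groups of all 5 did not overlap, which the naming rule required of Rsad2. Apol9a and Apol9b, neighbouring copies of an apolipoprotein L gene, were at 23, 35.3 and 17.7 CPM before and 219.6, 191 and 113 CPM after resection and at 22.1, 32.5 and 16.2 CPM before and 180.4, 134 and 69.1 CPM after resection. Their changes were 2.78 ± 0.49 as tested (adjusted p = 0.00614) and 2.67 ± 0.49 corrected (adjusted p = 0.00597) for Apol9a and 2.43 as tested and 2.32 corrected for Apol9b. How reads were divided between these copies is not given in the sources used here, so the split between them is uncertain.

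The interferon-stimulated response element, searched as GAAA, any 2 bases and GAAA, is known from the promoters of interferon-induced genes and is shown for 4 of the genes above. The Apol9a and Apol9b windows, at 2 places on chromosome 15, are letter for letter the same. A run such as TTTCAGTTTC is the element on the opposite strand.
Isg15 (chr4:156200861-156200910, minus strand): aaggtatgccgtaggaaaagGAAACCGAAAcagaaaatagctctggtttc
Rsad2 (chr12:26456543-26456592, minus strand): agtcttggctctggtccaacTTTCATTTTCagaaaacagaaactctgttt
Apol9a (chr15:77411110-77411159, minus strand): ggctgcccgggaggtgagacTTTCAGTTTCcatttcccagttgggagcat
Apol9b (chr15:77729015-77729064, plus strand): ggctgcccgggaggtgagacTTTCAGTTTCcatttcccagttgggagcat
The element occurred in 21 of the 37 interferon-stimulated genes with a promoter in the table (56.8%), beside 398 of 10442 promoters (3.81%). It was in 10 of the 15 that rose (66.7%) and in 11 of the 22 that were not called (50%).

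Antigen presentation genes, many of which interferons also induce, gave fewer calls. Of 22 class I and immunoproteasome genes, 3 rose (H2-T22, H2-Q1 and H2-Q2) and Erap1, an antigen-trimming peptidase, fell. Of all genes, 4.42% rose and 6.33% fell. H2-Q2 was not called corrected, and 3, 1, 0, 0, 0 and 4 rose in the leave-one-out fits. H2-T22 was at 36.6, 38 and 38.4 CPM before and 71.2, 68.2 and 55.6 CPM after resection. H2-T22 changed by 0.79 ± 0.17 as tested (adjusted p = 0.0145) and 0.71 ± 0.16 corrected (adjusted p = 0.0144). H2-Q1 and H2-Q2 are close copies and may share reads. None of 11 class II genes was called. Their summed level was 1043 to 4682 CPM before and 1205 to 6349.8 CPM after, and the second library of each group was the lowest of its group, as shown by H2-Aa at 444, 147 and 855 CPM before and 1476, 129.6 and 1404 CPM after resection.

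Paneth cell genes were lower after resection throughout the defensin family. The 14 tested defensins, antimicrobial peptides of Paneth granules, fell in both fits, with a median change of -1.93 (-1.90 corrected). In the leave-one-out fits 13, 10, 5, 5, 5 and 8 fell as tested and 13, 13, 9, 13, 9 and 12 corrected. Defa20 was at 2025, 2539 and 4075 CPM before and 349, 469 and 313 CPM after resection. Defa20 changed by -2.93 ± 0.52 as tested (adjusted p = 0.00657) and -2.91 ± 0.50 corrected (adjusted p = 0.00469). Defa20, Defa2, Defa22 and Defa21 had changes between -2.78 and -2.93 as tested, and Defa3 one of -1.95. Pre control 3 was the highest library in each of these 5 genes. Defensins are near-identical copies, and Defa23 and Defa-rs7 carried the same counts in each of the 6 control-arm libraries, so the 14 are not separate measurements.

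Of 19 other Paneth cell genes, 13 fell and the same 13 were called corrected (13, 10, 4, 4, 2 and 11 in the leave-one-out fits). Habp2, a secreted serine protease, was at 20.2, 17.9 and 35.1 CPM before and 2.47, 3.47 and 4.01 CPM after resection. Habp2 changed by -2.85 ± 0.44 as tested (adjusted p = 0.00299) and -2.73 ± 0.44 corrected (adjusted p = 0.0033). Wnt3, the Wnt ligand that Paneth cells give to stem cells, was at 7.25, 6.4 and 7.25 CPM before and 1.23, 1.28 and 1.5 CPM after resection, -2.35 ± 0.46 as tested (adjusted p = 0.00908) and -2.21 ± 0.45 corrected (adjusted p = 0.00941), with no overlap and little spread within groups. Ang4, an antimicrobial ribonuclease, was at 555, 640.3 and 1018 CPM before and 171, 140.0 and 147 CPM after resection. Ang4 changed by -2.27 ± 0.46 as tested (adjusted p = 0.0106) and -2.44 ± 0.41 corrected (adjusted p = 0.00395). Clps (colipase), Pnliprp2 (a lipase) and Itln1 (intelectin) had changes of -1.89, -1.50 and -1.79 as tested. Lyz1, the Paneth lysozyme and one of the 20 genes with most counts, was at 7728, 8518 and 12992 CPM before and 3213, 2501 and 2126 CPM after resection. Lyz1 changed by -1.90 ± 0.46 as tested (adjusted p = 0.0215) and -2.08 ± 0.42 corrected (adjusted p = 0.00922). Pla2g2a, a bactericidal phospholipase, was at 13.9, 29 and 54.7 CPM before and 5.7, 7.31 and 7.02 CPM after resection, -2.28 as tested and -2.35 corrected.

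The stem cell and proliferation genes that were called were all lower. Of 25 crypt stem cell and Wnt target genes, 13 fell and 8 did so corrected, with medians of -0.87 and -0.65; 12, 6, 3, 2, 1 and 12 fell in the leave-one-out fits. Lrig1, a stem cell regulator of ErbB signals, was at 30.8, 29.9 and 39.6 CPM before and 16.6, 16.8 and 16.4 CPM after resection, and its call was lost with the correction (-1.01 ± 0.19 as tested (adjusted p = 0.00766) and -0.65 ± 0.22 corrected (adjusted p = 0.0653)). Slc14a1, a urea transporter, was at 6.48, 5.18 and 7.13 CPM before and 2.77, 1.28 and 1.7 CPM after resection, -1.69 ± 0.34 as tested (adjusted p = 0.01) and -1.59 ± 0.33 corrected (adjusted p = 0.0103), and Ascl2, a master factor of crypt stem cells, at 1.65, 4.67 and 5.82 CPM before and 0.925, 1.28 and 0.702 CPM after resection. Ascl2 changed by -2.10 ± 0.48 as tested (adjusted p = 0.0181) and -2.06 ± 0.46 corrected (adjusted p = 0.0135). Slc12a2, Znrf3 and Tnfrsf19 were called in both fits. Of 44 cell cycle and DNA replication genes, 19 fell and 19 were called corrected, 16 of them shared, and none rose. The helicase subunits Mcm6, at 50.7, 45.2 and 62.4 CPM before and 20.8, 20.7 and 26.8 CPM after resection (-1.21 ± 0.21 as tested (adjusted p = 0.00544) and -1.0 ± 0.19 corrected (adjusted p = 0.00682)), and Mcm3, at 19.6, 16 and 30.2 CPM before and 6.16, 9.14 and 10.2 CPM after resection (-1.35 ± 0.26 as tested (adjusted p = 0.00868) and -1.21 ± 0.23 corrected (adjusted p = 0.00775)), were called in every fit. Mcm2, Mcm5, the maintenance methyltransferase Dnmt1 and the licensing factor Cdt1 had changes between -1.45 and -1.10 as tested. In all 6 of these genes Pre control 3 was the highest library, and without it or without Post control 1 or 2 the count dropped to 2.

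**Figure D4:**
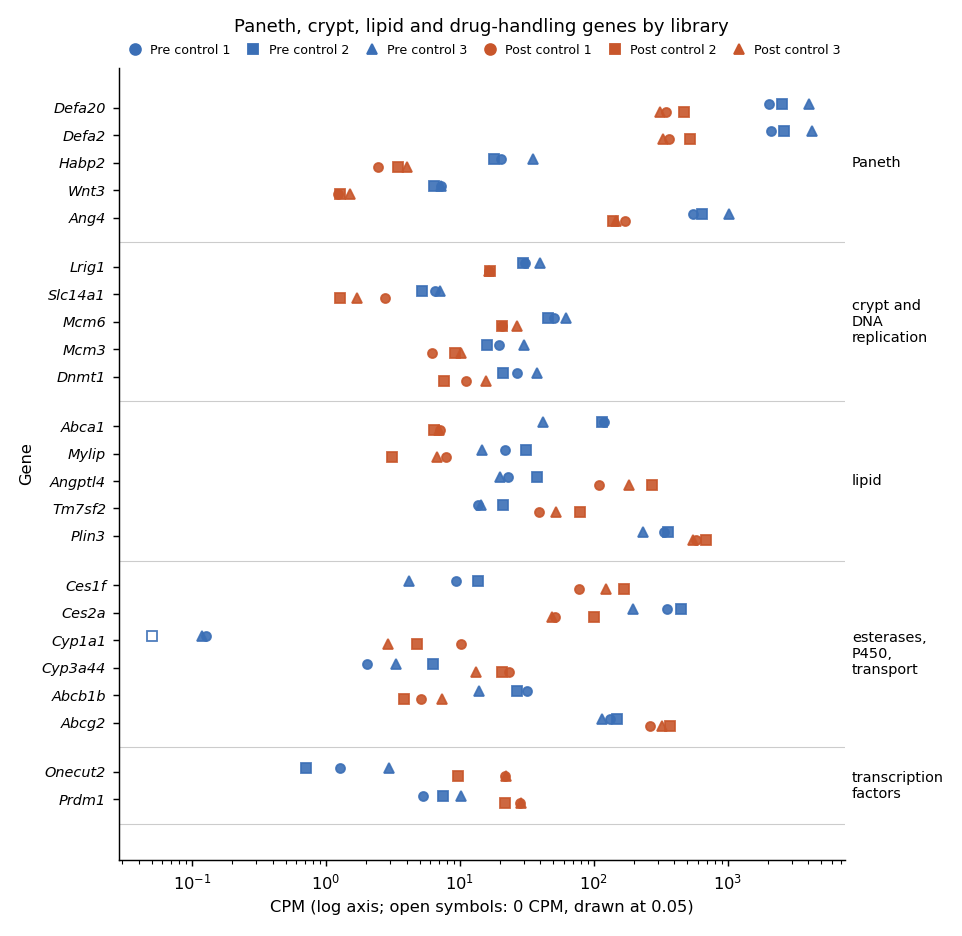
CPM (log axis) of Paneth, crypt, lipid and drug-handling genes and 2 transcription factors in each Pre control (blue) and Post control (orange) library; symbols give the replicate number and the open symbol stands for 0 CPM. The groups do not overlap in any of the genes drawn, which were chosen with their values known. Abca1 is lower in every Post library.

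Other secretory cells showed fewer calls. Galnt12 was the single gene of 17 for goblet cells and mucus that fell (27, 25.2 and 25.4 CPM before and 15.6, 18.3 and 17.8 CPM after resection, -0.59 as tested and -0.55 corrected), and it was not called in any leave-one-out fit. In 11 of the 17 all Post values lay below all Pre values, beside 17.6% of all genes tested, with a median change of -0.55 (-0.45 corrected), and 2 were called lower corrected. Muc2, the main mucin, was at 473, 412 and 530.0 CPM before and 209, 306 and 309 CPM after resection, with no overlap but no call (-0.78 ± 0.24, adjusted p = 0.0526; corrected 0.0661). None of 14 tuft cell genes was called, and Dclk1 was at 9.53, 8.43 and 7.49 CPM before and 3.39, 6.21 and 8.12 CPM after resection. Of 22 enteroendocrine genes 2 rose and 4 fell (2 and 6 corrected), beside 4.42% and 6.33% of all genes (7.24% and 4.94% corrected). In the leave-one-out fits 3, 2, 1, 1, 2 and 2 fell. Sst (somatostatin) was at 34.8, 29.1 and 38.2 CPM before and 15.9, 18.3 and 12.2 CPM after resection, a change of -1.15 ± 0.23 as tested (adjusted p = 0.0106) and -1.23 ± 0.18 corrected (adjusted p = 0.00189), called in every fit. Gcg, which encodes the GLP-1 and GLP-2 precursor, was at 33.3, 36 and 37.3 CPM before and 16.5, 27.8 and 17.3 CPM after resection. Gcg changed by -0.80 ± 0.23 as tested (adjusted p = 0.0409) and -1.07 ± 0.19 corrected (adjusted p = 0.00504). Gip, the incretin of the upper bowel, was at 54.4, 32.4 and 42.4 CPM before and 94, 94.5 and 65.4 CPM after resection, 0.97 ± 0.23 as tested (adjusted p = 0.0209) and 0.86 ± 0.21 corrected (adjusted p = 0.0227), and Tph1, the serotonin-producing enzyme of the gut, rose by 0.90 as tested and 1.09 corrected. Pcsk1n fell in both fits, and Insm1 fell as tested only.

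Lipid genes are given by pathway. Abca1 (Entrez 11303, chromosome 4, 53030789 to 53159988), the cholesterol exporter and a target of the sterol sensor LXR, was at 119, 114 and 42.1 CPM before and 7.09, 6.4 and 7.02 CPM after resection. Abca1 changed by -3.74 ± 0.34 as tested (adjusted p = 0.000278) and -3.28 ± 0.35 corrected (adjusted p = 0.000611). The LXR targets Mylip, which degrades the LDL receptor, and Abcg1 were at 21.6, 31.3 and 14.6 CPM before and 7.86, 3.11 and 6.71 CPM after resection (-1.91 ± 0.38 as tested (adjusted p = 0.00985) and -1.81 ± 0.37 corrected (adjusted p = 0.00954)) and 5.21, 7.31 and 9.27 CPM before and 2.93, 1.46 and 2.3 CPM after resection (-1.68 ± 0.36 as tested (adjusted p = 0.0142) and -1.31 ± 0.33 corrected (adjusted p = 0.0231)). These 3 of 15 sterol transport genes fell and none rose as tested, beside 6.33% and 4.42% of all genes. In the leave-one-out fits 4, 3, 3, 3, 1 and 3 fell. Nr1h2, which encodes LXR beta, was called higher only after correction (0.78 ± 0.18). Abcg5 and Srebf1 had lower values in all Post libraries but were not called. Of 24 cholesterol synthesis genes 6 rose and 7 did so corrected, beside 4.42% and 7.24% of all genes. Of these calls 5 were shared, and the list's median was 0.79 (0.81 corrected). Tm7sf2, a sterol reductase, was at 13.7, 20.8 and 14.3 CPM before and 39, 79.3 and 52 CPM after resection, 1.80 ± 0.26 as tested (adjusted p = 0.00217) and 1.71 ± 0.24 corrected (adjusted p = 0.00189), and Pmvk, a kinase of the mevalonate pathway, at 16.7, 18.2 and 21.2 CPM before and 28.4, 69.6 and 50.4 CPM after resection. Pmvk changed by 1.40 ± 0.28 as tested (adjusted p = 0.0106) and 1.32 ± 0.26 corrected (adjusted p = 0.00881). Cyp51 and Insig1 were near Pre levels in Post control 1 and higher in the other 2, at 87.7, 402 and 270.5 and 81.8, 266 and 208 CPM after and 76.3, 96.8 and 83.4 and 79.1, 65.5 and 71.6 CPM before. Without Post control 1 the list count was 14 as tested and 16 corrected, and without Post control 2 it was 1 and 2.

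Of 14 genes of fatty acid synthesis 3 fell, 2 of them also corrected, and none rose, beside 6.33% and 4.42% of all genes as tested. Acly, which makes cytosolic acetyl-CoA, was at 73.2, 70.2 and 78.3 CPM before and 36.2, 29.4 and 50.2 CPM after resection. Acly changed by -0.93 ± 0.20 as tested (adjusted p = 0.0141) and -0.66 ± 0.17 corrected (adjusted p = 0.0275). Elovl5 was called in both fits, and Acaca, the first step of synthesis, as tested only (-1.06 as tested and -0.62 corrected). These counts were 2, 1, 1, 0, 0 and 5 in the leave-one-out fits. Among 23 genes of fatty acid uptake and chylomicron assembly, 4 rose and 2 did so corrected, beside 4.42% and 7.24% of all genes. In the leave-one-out fits 3, 1, 0, 0, 0 and 5 rose. Plin3, a lipid droplet coat, was at 334, 359 and 231 CPM before and 583, 691 and 552 CPM after resection, 0.98 ± 0.23 as tested (adjusted p = 0.0202) and 1.19 ± 0.25 corrected (adjusted p = 0.0101), and Apoc2, the cofactor of lipoprotein lipase, at 222, 138 and 260.1 CPM before and 679, 835 and 520.0 CPM after resection. Apoc2 changed by 1.71 ± 0.43 as tested (adjusted p = 0.0258) and 1.63 ± 0.41 corrected (adjusted p = 0.0222). Sar1b and Pla2g12b, both of lipoprotein secretion, lost their calls after correction (adjusted p = 0.0661 and 0.0903). Fabp1 was at 608, 374 and 678 CPM before and 1463, 2222 and 1295 CPM after resection and Apoc3 at 496, 496 and 353 CPM before and 1308, 1465 and 659 CPM after resection. Neither was called in either fit.

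The next list holds genes of PPAR alpha, the fatty acid sensor, and of fatty acid oxidation. Of its 27 tested genes 5 rose and 3 fell, beside 4.42% and 6.33% of all genes. Corrected, 3 rose and 2 fell. In the leave-one-out fits 5, 1, 1, 1, 1 and 4 rose. Angptl4, a secreted lipase inhibitor, was at 22.8, 37.6 and 20.1 CPM before and 109, 270.2 and 183 CPM after resection, a change of 2.80 ± 0.39 as tested (adjusted p = 0.002) and 2.96 ± 0.38 corrected (adjusted p = 0.000943), called in every fit. Ppara itself was at 84.3, 89.4 and 32 CPM before and 21.1, 24.1 and 31.9 CPM after resection. Ppara changed by -1.41 ± 0.31 as tested (adjusted p = 0.016) and -1.26 ± 0.31 corrected (adjusted p = 0.0216). In Ppara the nearest values of the groups differed by little (Pre control 3 and Post control 3). Cpt1a fell as tested only, and Acadm and Vnn1 rose as tested only.

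Digestive enzymes and sugar genes moved in both directions. G6pc, the catalytic subunit of glucose-6-phosphatase, was at 15.6, 20.5 and 16.4 CPM before and 60.6, 53.4 and 42.2 CPM after resection, a change of 1.57 ± 0.27 as tested (adjusted p = 0.0059) and 1.54 ± 0.28 corrected (adjusted p = 0.00554), called in every fit. Treh, the brush border trehalase, was at 277, 172 and 211 CPM before and 553, 449 and 543 CPM after resection. Treh changed by 1.23 ± 0.35 as tested (adjusted p = 0.0409) and 1.21 ± 0.33 corrected (adjusted p = 0.0331). Mgam, maltase-glucoamylase, was at 2832, 1978 and 1893 CPM before and 495, 785 and 1193 CPM after resection. Mgam changed by -1.44 ± 0.31 as tested (adjusted p = 0.0148) and -1.12 ± 0.29 corrected (adjusted p = 0.0242). Sis, sucrase-isomaltase, was at 5954, 3475 and 4442 CPM before and 1292, 2245 and 2568 CPM after resection and had no overlap, but was not called (-1.18 ± 0.37, adjusted p = 0.0558; corrected 0.0646). Among 18 brush border peptidases and phosphatases Enpp3, an ectonucleotidase, alone was called: it was at 88.2, 62.1 and 123 CPM before and 531, 278 and 617 CPM after resection. Enpp3 changed by 2.39 ± 0.49 as tested (adjusted p = 0.0118) and 2.46 ± 0.50 corrected (adjusted p = 0.00922). Slc1a1 and Slc1a5, carriers of glutamate and glutamine, fell as tested, and Slc1a1 also corrected (-1.05 as tested and -0.88 corrected). Of 29 ion and water transport genes 1 rose and 5 fell (3 and 6 corrected), beside 4.42% and 6.33% of all genes (7.24% and 4.94% corrected). In the leave-one-out fits 4, 2, 3, 1, 1 and 5 fell. Ano1, a chloride channel, was at 4.83, 9.14 and 9.98 CPM before and 2.77, 2.38 and 2.3 CPM after resection, -1.69 ± 0.31 as tested (adjusted p = 0.00725) and -1.39 ± 0.29 corrected (adjusted p = 0.0103), and Aqp7, a glycerol channel, at 10.9, 11.2 and 9.75 CPM before and 39, 24.9 and 19.4 CPM after resection. Aqp7 changed by 1.38 ± 0.40 as tested (adjusted p = 0.0399) and 1.41 ± 0.40 corrected (adjusted p = 0.035). In the tight junction list Ocln and Cldn23 rose and Jam3 fell, each in both fits; as tested, no gene of the list rose without Pre control 2, Pre control 3, Post control 1 or Post control 2.

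Genes of drug and xenobiotic metabolism changed in both directions. Of 11 carboxylesterases, 4 rose and 1 fell, and 3 and 1 were called corrected. The shares of all genes were 4.42% and 6.33% as tested and 7.24% and 4.94% corrected. Ces1f (Entrez 234564, chromosome 8, 93256236 to 93279766), a carboxylesterase that hydrolyses esters and lipids, was at 9.28, 13.7 and 4.16 CPM before and 78, 169 and 122 CPM after resection. Ces1f changed by 3.75 ± 0.46 as tested (adjusted p = 0.000965) and 3.64 ± 0.45 corrected (adjusted p = 0.000939). Ces1g and Ces1e rose, at 0.509, 0.508 and 0.238 CPM before and 6.93, 9.32 and 5.91 CPM after resection (4.07 as tested and 4.03 corrected) and 4.07, 3.25 and 2.61 CPM before and 12.9, 8.23 and 13.4 CPM after resection (1.81 as tested and 1.76 corrected), while Ces2a fell, at 354, 446 and 196 CPM before and 51.6, 100.3 and 49.1 CPM after resection (-2.31 ± 0.40 as tested (adjusted p = 0.00603) and -2.39 ± 0.40 corrected (adjusted p = 0.00393)). These 4 were called in every fit. The carboxylesterases are a gene family in clusters, and shared reads among them were not tested. Cyp1a1, the aryl hydrocarbon receptor target, had 1, 0 and 1 counts before and 66, 26 and 29 after resection, a ratio of 72 per scaled library total with a 95% counting interval of 19.5 to 602. Cyp3a44 was at 2.03, 6.3 and 3.33 CPM before and 23.3, 20.5 and 13.1 CPM after resection, 2.25 ± 0.38 as tested (adjusted p = 0.00522) and 1.99 ± 0.35 corrected (adjusted p = 0.00526), and Cyp3a11, a main drug-oxidising P450, at 122, 247 and 247 CPM before and 1045, 468 and 525 CPM after resection. Cyp3a11 changed by 1.73 ± 0.41 as tested (adjusted p = 0.0202) and 1.51 ± 0.42 corrected (adjusted p = 0.0357). Cyp2c65 also rose in both fits and Cyp2u1 fell in both, whereas Cyp2c66 rose as tested only. In all, 7 of 21 P450 genes rose and 1 fell, and 4 rose and 1 fell corrected, beside the shares of all genes just given. In the leave-one-out fits 4, 4, 3, 2, 4 and 5 rose.

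Efflux pumps moved apart. Abcb1a and Abcb1b, which encode the P-glycoproteins, were at 513, 398 and 219 CPM before and 70.6, 62.7 and 108 CPM after resection and 31.9, 26.9 and 13.8 CPM before and 5.08, 3.84 and 7.42 CPM after resection, with changes of -2.22 ± 0.34 as tested (adjusted p = 0.00315) and -2.03 ± 0.34 corrected (adjusted p = 0.00371) and -2.12 ± 0.32 as tested (adjusted p = 0.0029) and -1.97 ± 0.31 corrected (adjusted p = 0.00252). Abcg2, which exports urate and drugs, was at 132, 148 and 115 CPM before and 264, 372 and 322 CPM after resection, 1.28 ± 0.21 as tested (adjusted p = 0.00392) and 1.40 ± 0.25 corrected (adjusted p = 0.00587), and Slc22a5, the carnitine carrier, at 73.9, 85.3 and 47.3 CPM before and 170.1, 163 and 154 CPM after resection. Slc22a5 changed by 1.24 ± 0.21 as tested (adjusted p = 0.00544) and 1.35 ± 0.20 corrected (adjusted p = 0.0022). These 4 were called in every fit and their groups did not overlap. Abcc3 rose in both fits but overlapped in Post control 1 (19.6, 19.5 and 25 CPM before and 24.5, 54.5 and 62.6 CPM after resection). Of 33 glutathione and NRF2 target genes, 8 rose as tested and 8 corrected, beside 4.42% and 7.24% of all genes. Of these calls 7 were shared, and the list's median was 0.64 (0.52 corrected). In the leave-one-out fits 5, 1, 1, 1, 1 and 8 rose. Gstt1 was at 25.8, 27.7 and 22.6 CPM before and 80.7, 102 and 59.9 CPM after resection, 1.67 ± 0.30 as tested (adjusted p = 0.00681) and 1.51 ± 0.26 corrected (adjusted p = 0.00459), and was called in each of them. Gsta2, Gstm3 and Gpx4 rose in both fits, Gsta1 as tested only, and Gsta1 and Gsta2 are close copies. Akr1c14, a steroid reductase, was at 123, 98.3 and 55.6 CPM before and 18.6, 7.86 and 11.9 CPM after resection, -2.85 ± 0.43 as tested (adjusted p = 0.0029) and -3.09 ± 0.44 corrected (adjusted p = 0.00197), and Adh6a rose in both fits. Sult1a1 was the single conjugation enzyme of 18 called as tested, and it fell (-1.54 as tested and -1.69 corrected).

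Immune and epithelial defence genes gave scattered calls. Nfkbiz, an NF-kappa B cofactor, was at 14, 16.7 and 19.4 CPM before and 53.3, 59.8 and 41.8 CPM after resection, 1.63 ± 0.34 as tested (adjusted p = 0.0117) and 1.89 ± 0.35 corrected (adjusted p = 0.00605), and Slpi, a secreted protease inhibitor, at 0.636, 1.52 and 3.33 CPM before and 13.4, 5.12 and 4.91 CPM after resection. Slpi changed by 2.07 ± 0.50 as tested (adjusted p = 0.0207) and 1.98 ± 0.46 corrected (adjusted p = 0.0167). Duoxa2 and Reg3b, a lectin induced by bacteria, were highest in Post control 2, at 11.4, 182 and 15.6 and 1515, 8800.0 and 1401 CPM in the Post libraries and 7.88, 20.3 and 15.5 and 2136, 3075 and 5676 CPM in the Pre libraries, and were not called. The mucosal mast cell proteases Mcpt1 and Mcpt2 were at 0.509, 1.93 and 2.14 CPM before and 19.4, 3.29 and 5.71 CPM after resection and 0.381, 0.711 and 0.832 CPM before and 7.7, 1.83 and 2.3 CPM after resection and rose in both fits, while Kit fell; neither protease was called as tested without Pre control 3 or without Post control 1. Of 16 genes of B cells, plasma cells and IgA, Prdm1 (above) rose and Cd22, a B cell receptor, fell. Cd22 was at 12.8, 1.22 and 3.8 CPM before and 0.462, 0.183 and 0.702 CPM after resection and was not called corrected, and Cxcr5, at 6.23, 0.203 and 0.475 CPM before and 0.154, 0.183 and 0.401 CPM after resection, was not called; the highest value of each was in Pre control 1. The summed level of the list was 1942 to 3396 CPM before and 3046 to 3823 CPM after resection. Cybb, the phagocyte oxidase subunit, was at 17.2, 17.2 and 21.6 CPM before and 7.24, 3.11 and 6.51 CPM after resection, -1.71 ± 0.29 as tested (adjusted p = 0.00486) and -1.60 ± 0.24 corrected (adjusted p = 0.00217), and 4 of 21 myeloid genes fell in both fits, while 9, 1, 1, 1, 1 and 2 fell in the leave-one-out fits as tested and 8, 2, 2, 2, 1 and 2 corrected. In the T cell list Klrd1 rose and Cd4 fell, both as tested only; Gzma was at 106, 22.7 and 116 CPM before and 279, 139 and 235 CPM after resection and was not called.

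The counts of stromal and neural genes called depended on single libraries. Of 35 fibroblast and matrix genes 14 fell, but 4 did so corrected; the leave-one-out counts were 29, 4, 1, 1, 0 and 15 as tested and 24, 1, 1, 1, 1 and 2 corrected. The summed level was 537 to 2021 CPM before and 382 to 706 CPM after, and Pre control 1 lay within the Post range. Timp3, an inhibitor of matrix proteases, was at 16, 46.5 and 46.8 CPM before and 9.71, 6.21 and 13 CPM after resection. Timp3 changed by -1.90 ± 0.36 as tested (adjusted p = 0.00824) and -1.68 ± 0.33 corrected (adjusted p = 0.00846). Hspg2, Fn1, Lamc1, Eln and Lamb2 fell as tested and were not called corrected. Of 20 endothelial genes only Tek fell, and only as tested; without Pre control 1 the counts were 16 and 15, and without any other library of the arm they were 0. Of 22 smooth muscle genes 3 fell (2 corrected, Myh11 and Lmod1), beside 6.33% of all genes (4.94% corrected). In the leave-one-out fits 3, 0, 0, 0, 0 and 3 fell. Of 20 neuron and glia genes 10 fell as tested and 10 corrected, 9 of them shared, and 10, 6, 0, 1, 1 and 7 fell in the leave-one-out fits. Syt1, of synaptic vesicles, was at 2.03, 1.73 and 3.92 CPM before and 0.308, 0 and 0.501 CPM after resection and Ncam1 at 1.53, 3.76 and 6.89 CPM before and 0.616, 0.731 and 0.601 CPM after resection, so these calls rest on few counts. Of 7 tested genes of the mesothelium, the outer surface of the bowel, 4 rose as tested and 3 corrected, and 3, 2, 2, 2, 3 and 4 rose in the leave-one-out fits. The list also holds Krt19 and Cldn15, which the epithelium expresses, and its summed level was 1645 to 1826 CPM before and 1440.5 to 1744 CPM after resection. The 3 called in both fits were near 0 before resection. Upk3b had 0, 0 and 2 counts before and 42, 24 and 32 after, a ratio of 58.3 per scaled library total with a 95% counting interval of 15.7 to 489. Lrrn4 had 1, 0 and 0 counts before and 20, 6 and 17 after, and Msln 4, 0 and 0 before and 35, 9 and 27 after. The part that the amount of stroma, nerve or outer surface in a sample had in the epithelial results was not tested.

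**Figure D5:**
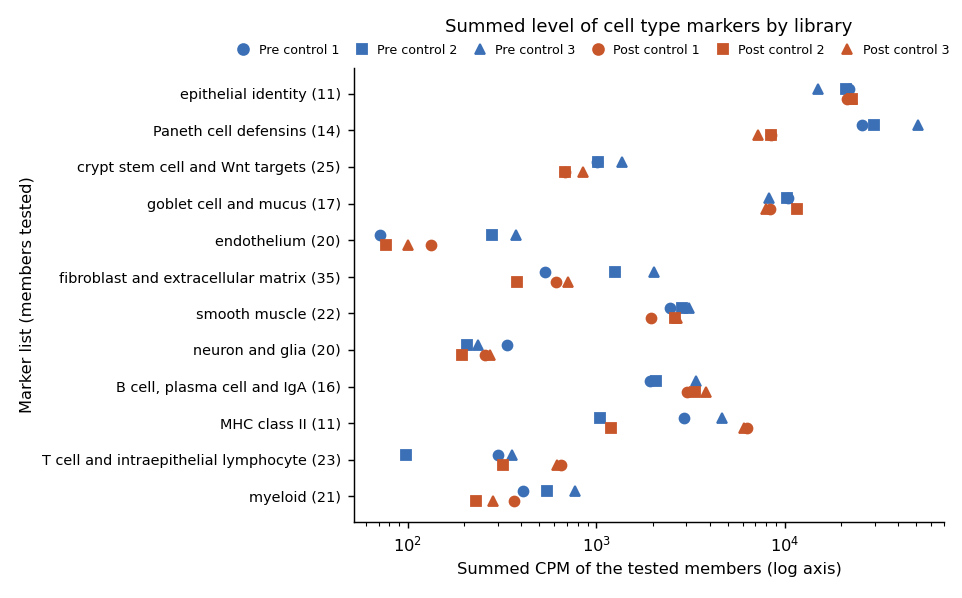
Summed CPM (log axis) of the tested members of 12 marker lists in each Pre control (blue) and Post control (orange) library; symbols give the replicate number. The defensin sums do not overlap, while for endothelium and matrix Pre control 1 lies with the Post libraries.

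Stress and growth genes added a few changes. Klf6, an early-response factor, was at 276, 179 and 158 CPM before and 376, 420.4 and 516 CPM after resection, 1.10 ± 0.23 as tested (adjusted p = 0.0117) and 1.17 ± 0.21 corrected (adjusted p = 0.00581), whereas Fos and Egr1 were not called. Hspa1a was at 4.32, 7.31 and 5.82 CPM before and 6.47, 36.4 and 84.8 CPM after resection and Hspa1b at 6.99, 10.6 and 7.37 CPM before and 8.17, 57 and 117 CPM after resection, so both rested on Post control 2 and 3; Dnajb1 and Dnaja1 rose in both fits, and of 16 heat shock genes 1, 0, 0, 4, 0 and 0 rose in the leave-one-out fits. Atf4, the factor of the integrated stress response, was at 139.8, 149 and 165 CPM before and 246, 266 and 320.4 CPM after resection, 0.87 ± 0.18 as tested (adjusted p = 0.0133) and 0.83 ± 0.18 corrected (adjusted p = 0.0137), and Ddit3, its target CHOP, rose by 0.94 as tested and 0.82 corrected. Ankrd37, a hypoxia target, was at 2.16, 3.86 and 1.43 CPM before and 6.78, 17.2 and 7.82 CPM after resection. Ankrd37 changed by 2.05 ± 0.45 as tested (adjusted p = 0.0157) and 1.87 ± 0.45 corrected (adjusted p = 0.0187). Vegfa rose (0.71 as tested and 0.88 corrected). Igf1r, the receptor of IGF1, was at 6.61, 9.85 and 13.7 CPM before and 2.47, 2.01 and 3.21 CPM after resection, -1.94 ± 0.37 as tested (adjusted p = 0.00869) and -1.43 ± 0.36 corrected (adjusted p = 0.0229), and Fgfr2 fell in both fits, while Egfr, in a transcript of 10208 nt, was called higher only corrected (1.02 ± 0.20, adjusted p = 0.00736). Notch2 fell in both fits (-1.82 as tested and -1.33 corrected) and Notch1 as tested only. Il33, an alarmin, was at 39.9, 43.5 and 37.7 CPM before and 12.9, 15.2 and 15.3 CPM after resection. Il33 changed by -1.48 ± 0.26 as tested (adjusted p = 0.00609) and -1.60 ± 0.20 corrected (adjusted p = 0.000939). Sprr2a1 and Sprr2a2, near-identical small proline-rich genes, were at 656, 999 and 497 CPM before and 1895, 7262 and 2826 CPM after resection and 657, 999 and 497 CPM before and 1904, 7185 and 2816 CPM after resection, with Post control 2 the highest library, and changes of 2.48 ± 0.45 as tested (adjusted p = 0.00679) and 2.40 ± 0.46 corrected (adjusted p = 0.00761) and 2.47 as tested and 2.35 corrected. Oxidative phosphorylation gave 2 calls higher in 75 genes (7 corrected), beside 4.42% of all genes (7.24% corrected). In the leave-one-out fits it gave 1, 0, 0, 0, 0 and 18 as tested. None of 64 ribosomal protein genes was called as tested.

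Beyond the lists, several of the largest rises belonged to genes of other functions. Tmem252, a membrane protein, was at 9.66, 14.6 and 11.8 CPM before and 63.2, 125 and 45.1 CPM after resection, 2.69 ± 0.40 as tested (adjusted p = 0.00287) and 2.99 ± 0.44 corrected (adjusted p = 0.00211), and Ypel2 at 9.66, 7.21 and 8.44 CPM before and 44.5, 69.6 and 34.9 CPM after resection. Ypel2 changed by 2.55 ± 0.29 as tested (adjusted p = 0.000695) and 2.83 ± 0.33 corrected (adjusted p = 0.000667). Ada, adenosine deaminase, was at 349, 294 and 382 CPM before and 1902, 2205 and 1402 CPM after resection. Ada changed by 2.42 ± 0.47 as tested (adjusted p = 0.0085) and 2.35 ± 0.46 corrected (adjusted p = 0.00807). Oit1 was at 38.4, 38.3 and 49.4 CPM before and 194, 302 and 208 CPM after resection. Oit1 changed by 2.48 ± 0.25 as tested (adjusted p = 0.000389) and 2.35 ± 0.21 corrected (adjusted p = 0.000358). Neat1, a long nuclear RNA, was at 24.3, 38.2 and 37 CPM before and 203, 183 and 165 CPM after resection. Neat1 changed by 2.47 ± 0.59 as tested (adjusted p = 0.0209) and 3.14 ± 0.64 corrected (adjusted p = 0.00962). Its transcript is 20771 nt long, and it was called in 2 of 6 leave-one-out fits as tested and in all 6 corrected. The rule that named these 5 admits only genes whose groups do not overlap, so the lack of overlap in them is no added result. Among the 20 genes with the highest counts, 4 were called as tested, among them Esp38, Lyz1 and Defa24, all lower and all also corrected. The others, such as the lipid binder Fabp2 at 10937, 9275 and 5912 CPM before and 20607, 23540.1 and 13489.9 CPM after resection and the peptidase Anpep at 8803, 7604 and 6413 CPM before and 7552, 5946 and 10255 CPM after resection, were not called. Esp38 held 5.09%, 4.21% and 14.1% of the counts before and 0.577%, 0.906% and 0.398% after resection. Lars2, not called, held 0.757%, 0.593% and 1.68% before and 0.381%, 0.414% and 0.276% after. Both were highest in Pre control 3, and what sets their share of a library was not tested. Leaving Esp38 and Lars2 out of the library totals gave 1405 calls.

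Calls made in only one of the fits ran mainly lower as tested and higher when corrected. The largest changes called as tested only were Cyp2c66, Cyp2c55, Gsta1, Rdh7 and Vnn1 among those that rose and Npnt, Sfrp1, Col6a1, Hspg2 and Col4a2 among those that fell. Hspg2, in a transcript of 14176 nt, went from -1.64 ± 0.37 to -0.86 ± 0.38 (adjusted p = 0.0169 and 0.142), while Cyp2c66, of 1630 nt, went from 2.09 ± 0.58 to 1.82 ± 0.58 (adjusted p = 0.035 and 0.0554). Called corrected only were Slc28a2, Leng8, Oas3, Prrx1 and Ston2 higher and Adamdec1, Muc3, Ccl6, Nap1l1 and Id2 lower. Leng8 was at 17.7, 19.7 and 23.3 CPM before and 53.6, 39.7 and 43.2 CPM after resection, with no overlap, and went from 1.17 ± 0.37 to 1.57 ± 0.31 (adjusted p = 0.0553 and 0.00881). Ston2, in a transcript of 9896 nt, was at 43.9, 21.6 and 21.5 CPM before and 51.2, 58.9 and 68.2 CPM after resection and went from 1.04 ± 0.36 to 1.51 ± 0.35.

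The same contrast in the 2'-FL arm differed from that in the control arm for 2038 genes (15.5%) as tested, 168 of which were called in the control arm. After the correction the difference between the arms was called for 0 genes by edgeR, with a smallest adjusted p of 0.0567 and 2647 genes at an unadjusted p under 0.05; DESeq2, without the correction, called 2643. This count rests on the transcript length used: with each gene's median protein-coding transcript in place of its longest, the corrected difference was called for 1120 genes, 893 of them also called as tested. Of the 1052 genes called in both control-arm fits, 683 were also called in the same direction in the corrected 2'-FL arm. The share of all genes called in that arm is not given here, so this count does not measure how alike the arms were. Dbp changed by -6.59 in the control arm and -3.31 in the 2'-FL arm, a difference of 3.28 ± 0.98 (adjusted p = 0.0377; corrected 3.44, adjusted p = 0.107). Arntl changed by 2.60 and 0.37, a difference of -2.23 ± 0.39 (adjusted p = 0.0159; corrected -2.17, adjusted p = 0.0567). Slc34a2, a phosphate carrier, was at 367, 335 and 222 CPM before and 981, 1200.3 and 1375 CPM after resection in the control arm and changed by 1.95 there and by -0.11 with 2'-FL. Bcl2l15, a relative of the BCL2 family, changed by -1.48 in the control arm and by 0.90 with 2'-FL. Mean levels in the control and 2'-FL arms were 94.4 and 16.8 CPM before and 0.965 and 1.70 CPM after resection for Dbp. For Arntl they were 11.1 and 26.5 CPM before and 67.2 and 34.1 CPM after. For Slc34a2 they were 308 and 519 CPM before and 1185 and 480 CPM after. For Bcl2l15 they were 134 and 109 CPM before and 48.2 and 203 CPM after.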

How the data were processed

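Small bowel RNA of 12 libraries was analysed. The deposited files hold expected counts per gene, that is estimated read counts that need not be whole, which the authors had not normalised; between 15.2% and 20.5% of entries in a library are fractional. Per the submitters' processing notes the build is mm10 and DESeq was used. The aligner, counter, annotation and strand are not given in the sources used here, so antisense, overlapping and near-identical genes may share reads. Per the labels' protocols, about 1.5 µg of RNA entered a TruSeq RNA preparation and Illumina HiSeq sequencing. Entries of a gene were summed (486 entries of genes listed more than once, which left 35791 genes) and rounded. The analysis used R 4.3.3 and edgeR 4.0.16. Low-count genes were removed by filterByExpr with the 4 groups. After TMM scaling, all 12 libraries entered 1 quasi-likelihood fit of the group means (8 residual degrees of freedom, biological coefficient of variation 0.238, and 0.217 corrected). Adjusted p-values are edgeR's, two-sided, with Benjamini-Hochberg adjustment over 13154 genes, and calls are at an adjusted p under 0.05. The SE of a log2 change is its size over the root of its F statistic. For the correction, each library's log2 CPM (prior count 2), centred per gene, was modelled on transcript length and GC content, each as a natural spline (df 4), and the fitted trend entered the offsets. Length and GC came from a gene's longest GENCODE transcript with a curated RefSeq match, or its longest transcript where none matched, and were known for 13078 genes. The fit was tested on simulated data. The labels describe each library as from 1 mouse but do not say that the mice were separate, so p-values measure the spread between libraries.

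The libraries, gene lists and rules were chosen with earlier results of these data known. Named genes follow 5 rules. They are the 15 largest corrected changes each way among genes called in both fits without overlap and with at least 20 CPM in the higher group (unnamed gene models left out), and up to 6 genes with the smallest p in each list. They are also the 20 genes with most counts. The other rules take the 5 largest changes each way among genes of at least 20 CPM called in only the fit as tested or only the corrected fit, and, of genes called both in the control arm and in the difference between the arms, the 5 largest differences each way. Cdx2, Cldn15, Clock, Defa-rs7, Defa23, Egfr, Egr1, Fos, Hnf4a, Nr1d1, Nr1d2 and Vil1 fall outside this rule and were chosen after their values were seen. Some genes that the rule names are not reported here. Positions and promoters are RefSeq's for GRCm38.p6, matched by Entrez number; 10442 of the 13154 genes had a promoter. Alternatives were other scalings, DESeq2 1.42.0, other filters, length alone, the median protein-coding transcript length, a replicate block, fits without single libraries and fits of the control arm alone. Counting intervals and floors cover counting error only.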

Additional observations from a re-analysis of the deposited data

Results flagged for a closer look

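In 25 genes named above or in this paragraph the change after resection differed between the arms as tested (edgeR's interaction term, adjusted p under 0.05). In none of the 25 was the difference called after the length and GC correction. With the median protein-coding transcript length in that correction, 14 of the 25 were called. Each value below is the log2 change in the 2'-FL arm minus that in the control arm. Among clock genes it was -2.23 for Arntl, -2.46 for Npas2, -1.87 for Nfil3 and 3.28 for Dbp. In all 4 the change was larger in size in the control arm. For Npas2 the changes were 1.95 in the control arm and -0.51 with 2'-FL. Mean levels before resection in the control and 2'-FL arms were 94.4 and 16.8 CPM for Dbp and 11.1 and 26.5 CPM for Arntl. For Nfil3 they were 4.05 and 15.4 CPM and for Npas2 17.5 and 27.2 CPM. After resection these genes were at 0.965 and 1.70, 67.2 and 34.1, 23.8 and 24.8, and 68.0 and 19.0 CPM. Whether the arms differed before resection was not tested. In metabolism the difference was 2.36 for Akr1c14, 2.09 for Gsta1, 2.00 for Gsta2, 1.47 for Gpx4, -1.28 for G6pc and -1.35 for Acaca. For the lipoprotein secretion genes Sar1b and Pla2g12b it was 1.32 and 0.97, and for the phosphate carrier Slc34a2 -2.06. It was 1.03 for Sst, 2.03 for Hoxb7, -0.97 for Vegfa, -1.35 for Egfr and -2.74 for Oas3. For the remaining genes it was -1.77 for Tmem252, -1.90 for Ypel2, -2.27 for Leng8, -1.60 for Ston2, 2.38 for Bcl2l15, -2.29 for Zfp609 and -2.11 for Arrb1. Of the 25, Arntl and Bcl2l15 had the smallest corrected adjusted p by edgeR, 0.0567, and it was 0.0209 for both with the median transcript length. Groups of 3 libraries were too small to test single libraries as outliers.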

How the results depend on the processing

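Of the 216 genes named, none of the 177 called as tested changed sign under any alternative, and 46 stayed called under every one. Of the 39 not called, 10 changed sign. Upper-quartile scaling gave -0.05 for Anpep, -0.09 for Cdx2, -0.02 for Fos and -0.06 for Reg3b, and the filter at 5 CPM -0.03 for Cdx2. Reg3b was at -0.19 corrected, -0.10 with length alone, -0.20 corrected in the control arm alone, -0.35 with the replicate block and -0.58 with block and correction, where Vil1 was at 0.01. Without single libraries or the pair, the values ran from -0.27 to 0.25 for Anpep, -0.17 to 0.25 for Cdx2, -0.08 to 2.76 for Duoxa2, -0.38 to 0.86 for Egr1, -0.07 to 0.20 for Fos, -0.09 to 0.30 for Krt8, -1.29 to 0.99 for Reg3b and -0.50 to 0.06 for Vil1. With the correction and without single libraries, the values of opposite sign were -0.10 and -0.05 for Cdx2, 0.12 for Dclk1, -0.11 for Duoxa2, -0.16 for Egr1, -0.10 for Fos, -0.07 for Krt8, -1.40, -0.42 and -0.27 for Reg3b, 0.06 for Srebf1 and 0.02, 0.14 and 0.22 for Vil1, and without the pair -0.07 for Fos. The 1415 calls were 1391 with DESeq2's size factors, 1524 with upper-quartile scaling, 1949 with DESeq2's test and 1091 with a filter at 5 CPM. Upper-quartile scaling moved the median of all genes by -0.115 and called 26% of its genes higher, against 41.1%, 48.1% with DESeq2's test and 50.5% with the 6 control-arm libraries alone (1478 calls, 1455 corrected). Leaving out 1 library gave 265 (Post control 2) to 1843 (Post 2'-FL 1) calls, and 461 to 1953 corrected; without Pre control 3 and Post control 3 together there were 491 and, in a fit added after seeing the data, 463. With the number as a replicate block, 1168 genes were called, and 1596 corrected. Deviations of same-numbered Pre and Post libraries from their group means correlated at -0.097, 0.164 and 0.056 across genes, and Post control 1 correlated best with Pre control 3 (0.153), so the numbers were not taken as pairs. The 2038 differences between the arms became 0 with the correction, 95 with length alone, 1120 with the median transcript length in it, 901 with the replicate block and 0 with the block and correction, and 12 to 3024 without single libraries or the pair; the cause was not tested. At 0.107 to 0.176 CPM per count, genes of a few counts, such as Syt1, are limited by depth.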
